A study of Mus musculus with 3 samples.

Results

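The bone morphogenetic protein (BMP) signalling genes described here are 10 genes chosen by name from the 31053 genes of the count files. They are 3 ligands (*Bmp2*, *Bmp4* and *Bmp7*), 3 receptors (*Bmpr1a*, *Bmpr1b* and *Bmpr2*) and 4 secreted antagonists or modulators (*Nog*, *Grem1*, *Chrdl1* and *Bmper*). Their RNA was counted in single cells of subcutaneous implants in female CD-1 mice aged 6 to 8 weeks, harvested on day 5, a model of early heterotopic ossification, the formation of cartilage and bone outside the skeleton. There were 3 groups with 1 droplet library each. The Matrigel-only mice carried Matrigel, a basement membrane gel, without recombinant protein, and received nothing by mouth. The Vehicle mice carried Matrigel with rhBMP2, the recombinant human protein that starts ectopic cartilage and bone, and were given corn oil/DMSO orally. The Palo mice carried the same rhBMP2/Matrigel mixture and received 4 mg/kg of palovarotene, an agonist of retinoic acid receptor gamma, daily. Vehicle and Matrigel-only mice differed both in rhBMP2 and in the oral vehicle, and the shares of these in any difference cannot be told apart. The implanted protein carries no mouse RNA, so the *Bmp2* counts are those of the mouse gene. The masses of a group were combined into its library, and no label ties a cell to a mouse.

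BMP ligands are secreted dimers that bring together type I receptors, such as those encoded by *Bmpr1a* and *Bmpr1b*, and type II receptors, such as that of *Bmpr2*. The active complex phosphorylates SMAD1, SMAD5 and SMAD8, which enter the nucleus with SMAD4 and switch on genes such as the *Id* family. Noggin (*Nog*), gremlin 1 (*Grem1*), chordin-like 1 (*Chrdl1*) and BMPER (*Bmper*) bind the ligands outside the cell. Noggin, gremlin 1 and chordin-like 1 keep them from the receptors, and BMPER can inhibit or favour signalling with the setting. In the limb and in ectopic bone, these signals drive mesenchymal cells into cartilage.

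Each library gave 44252421 to 46901673 unique molecular identifiers (UMIs, counted molecules). Cells with 200 to 6000 genes and at most 5% mitochondrial UMIs were kept, namely 8728 of Matrigel-only, 5478 of Vehicle and 7297 of Palo, and 51 barcodes occurred in more than 1 library. Stromal cells were those in which *Col1a1*, *Col1a2*, *Col3a1*, *Dcn* and *Lum* held at least 1% of UMIs, 2085, 1373 and 1184 cells in the same order. Macrophages were the cells under 1% with a *Csf1r* or *C1qa* UMI, 5812, 3253 and 5661 cells. All 12 fibroblast genes and all 10 macrophage genes outside the rule had a UMI in both classes of each library, so presence alone does not separate the classes. In macrophages the fibroblast genes summed to 0.935%, 1.35% and 0.561% of their stromal level. In stromal cells the macrophage genes summed to 3.95%, 1.79% and 3.16% of their macrophage level. Stromal cells differed in depth, with a median of 9082 UMIs (Matrigel-only), 17114 (Vehicle) and 12955 (Palo), so shares of cells are also given after every cell was thinned to 3100 UMIs. Levels are UMIs of a gene per 1000000 UMIs of the class (CPM), with exact Poisson 95% intervals that cover counting error only. With 1 library per group, replicate error is unknown for every difference between groups, and none was tested. A difference of at least 2-fold was counted for genes with a mean of at least 5 CPM over the 3 libraries, which 6 of the 10 members passed in stromal cells and 2 in macrophages.

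In the stroma, *Bmp7*, *Chrdl1* and *Bmper* were at least 2-fold lower in Vehicle than in Matrigel-only cells, *Bmper* only just and under 2-fold in 9 of 11 alternatives, and *Bmp7*, *Chrdl1* and *Grem1* were at least 2-fold higher in Palo than in Vehicle cells. In macrophages, *Bmp2* was lower in the Vehicle library than in each of the others. *Bmpr1a* and *Bmpr2* differed by at most 1.30-fold between any pair of libraries in the stroma.

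Of the 6 members compared in the stroma, 3 were lower and 0 higher in Vehicle than in Matrigel-only, where 9.97% of 10311 genes were lower, 4.55% higher and 14.5% either. In Palo over Vehicle, 3 were higher and 0 lower, where 7.45% of the genes were higher, 4.6% lower and 12% either. In Palo over Matrigel-only, 1 member (*Grem1*) was higher and 0 lower, where 0.834% of the genes were higher, 2.21% lower and 3.05% either. The median log2 ratio of the 6 members was -0.72, 1.13 and -0.31 in these comparisons, beside -0.04, 0.02 and -0.03 over all genes. In macrophages, 1 of 2 members (*Bmp2*) was lower and 0 higher in Vehicle than in Matrigel-only, where 2.65% of 9551 genes were lower, 3.83% higher and 6.48% either. In Palo over Vehicle, *Bmp2* was higher and 0 members were lower, where 1.83% of the genes were higher, 4.7% lower and 6.53% either. Neither macrophage member passed 2-fold in Palo over Matrigel-only, where 0.984% of the genes were higher, 1.7% lower and 2.68% either. Each library enters 2 of the 3 comparisons, so the comparisons share cells.

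**Figure D1:**
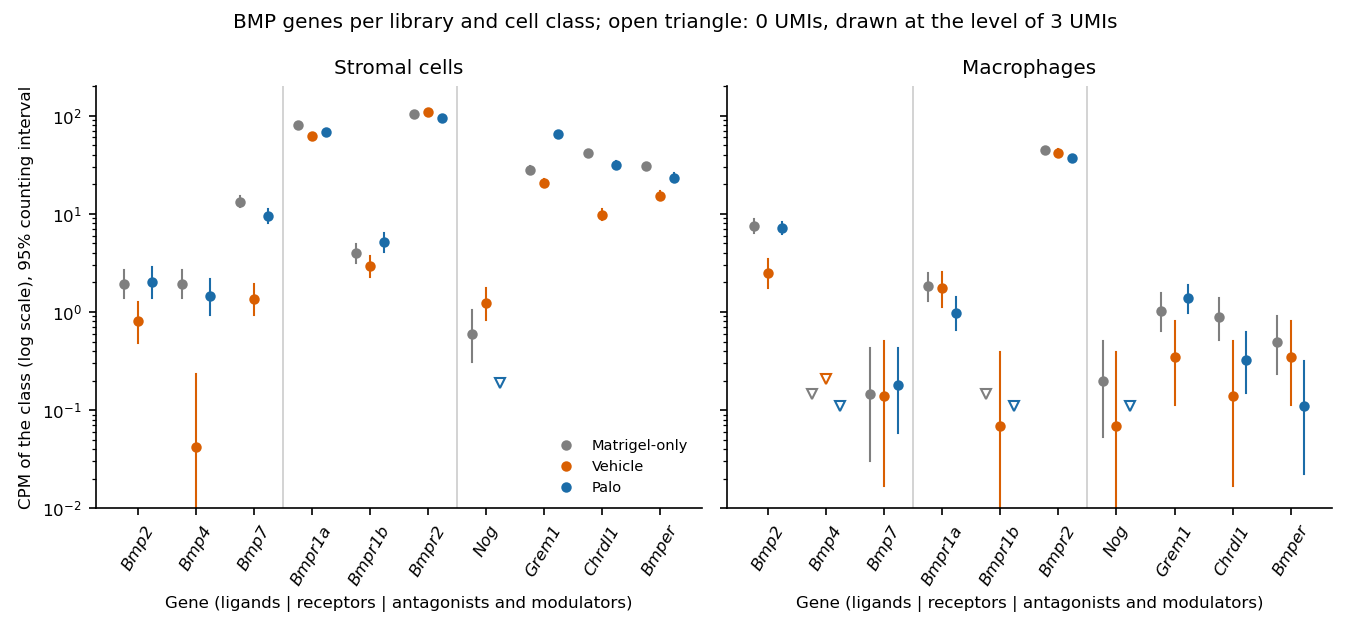
Level of each BMP gene in CPM on a log axis, in stromal cells (left) and macrophages (right), with 1 point per library and lines for the 95% counting interval, cut at the lower edge. Open triangles mark libraries with 0 UMIs, drawn at the level of 3 UMIs. *Bmp7* and *Chrdl1* are lowest in Vehicle stromal cells, *Grem1* is highest in Palo stromal cells, and in macrophages only *Bmpr2*, and *Bmp2* outside Vehicle, lie above 5 CPM.

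To see which cells carry each gene, the stromal cells were also divided by score. The progenitor range held cells with *Pi16*, *Clec3b*, *Dpp4*, *Sema3c*, *Cd55* and *Anxa3*, genes of fibroblast progenitors, at 0.2% of UMIs or more. The cartilage range held cells with *Acan*, *Col2a1*, *Col9a1*, *Col9a2* and *Col9a3* at 0.1% or more, and the rest held all others. These are ranges of a score and not cell types, and 255 Matrigel-only, 35 Vehicle and 82 Palo cells lay between the progenitor limit and its double. The progenitor range made up 52.9% of Matrigel-only, 6.48% of Vehicle and 27.1% of Palo stromal cells. The cartilage range held 562 Vehicle cells, 40.9% of the Vehicle stroma, and 0 cells of the other libraries.

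*Bmp7* encodes a ligand known for its part in kidney, skeletal and fat development and lies at chr2:172868012-172940321 on the minus strand of mm10. Its stromal level was 13.3 CPM (11.8 to 15.0) in Matrigel-only, 1.36 CPM (0.928 to 1.91) in Vehicle and 9.54 CPM (8.08 to 11.2) in Palo, from 267, 32 and 151 UMIs. The Vehicle library alone was low, and its interval did not meet that of either other library. The log2 ratio was -3.30 (-3.87 to -2.76) for Vehicle over Matrigel-only and 2.81 (2.26 to 3.41) for Palo over Vehicle. For Palo over Matrigel-only it was -0.48 (-0.78 to -0.19), under the 2-fold limit. The share of thinned cells with a *Bmp7* UMI was 4.94%, 0.603% and 3.35% in Matrigel-only, Vehicle and Palo.

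Within the stroma, most *Bmp7* RNA was in the progenitor range. There it was 29.1 CPM (25.7 to 32.9) in Matrigel-only, 21.9 CPM (14.2 to 32.3) in Vehicle and 44.5 CPM (37.6 to 52.4) in Palo. In the rest of the stroma it was 0.630, 0.313 and 0.477 CPM, and in the Vehicle cartilage range 0.310 CPM from 3 UMIs. The Vehicle interval overlapped that of Matrigel-only there, while the Palo level lay above that of Matrigel-only by a log2 ratio of 0.61 (0.31 to 0.91) and above Vehicle by 1.03 (0.41 to 1.70). The level over all stromal cells moved with the share of progenitor-range cells, 52.9%, 6.48% and 27.1%, whose part in it was not tested. Without that range the log2 ratio was -1.01 for Vehicle over Matrigel-only and 0.61 for Palo over Vehicle. Few UMIs lay there, 7 in Matrigel-only, 6 in Palo, and 4 (rest) and 3 (cartilage range) in Vehicle. For the rest alone the intervals, -3.23 to 0.97 and -1.47 to 2.88, spanned both directions. Without the cartilage range the log2 ratios were -2.68 and 2.20, and with cells weighted equally -2.52 and 2.16. In all cells together, the progenitor range held 93.2% of *Bmp7* UMIs (Matrigel-only), 62.5% (Vehicle) and 89.5% (Palo).

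*Bmp4*, at chr14:46383520-46390669 on the minus strand, encodes a ligand of limb and skeletal patterning and was scarce. It had 39 UMIs in 32 Matrigel-only, 1 UMI in 1 Vehicle and 23 UMIs in 21 Palo stromal cells, or 1.95 CPM (1.38 to 2.66), 0.0424 CPM (0.00107 to 0.236) and 1.45 CPM (0.921 to 2.18). The Vehicle interval lay below both others, at a mean level under the 5 CPM minimum. The log2 ratio of Vehicle over Matrigel-only was -5.52, with an interval from -10.86 to -2.96 that shows how little 1 UMI fixes. Of the 39 Matrigel-only UMIs 34, and of the 23 Palo UMIs 20, fell in the progenitor range, where *Bmp4* was 3.81 CPM (2.64 to 5.32) and 6.14 CPM (3.75 to 9.49). The progenitor range of Vehicle held 1 UMI in 89 cells (0.875 CPM, 0.0222 to 4.88), and the log2 ratio to Matrigel-only of -2.12 had an interval from -7.47 to 0.46, so a difference from Matrigel-only in these cells was not detectable at this depth. Palo over Vehicle was 2.81 there (0.17 to 8.18), an interval above 0 that rests on 20 UMIs against 1. The genes *Gm15217* and *Gm15222* of the other strand overlap *Bmp4*, and *Gm17110* likewise *Bmpr1a*, and whether the counting used strand is not given in the sources used here.

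The macrophages held 0 *Bmp4* UMIs in all 3 libraries, where 3 UMIs would be 0.147, 0.209 and 0.109 CPM in Matrigel-only, Vehicle and Palo. In Vehicle, 14 of the 16 *Bmp4* UMIs of the library came from 12 of 574 cells, a level of 9.17 CPM (5.01 to 15.4). These cells lay outside both classes and had no UMI of 6 lymphoid genes (*Cd3d*, *Cd3e*, *Cd3g*, *Trbc2*, *Nkg7* and *Ncr1*). The 278 Vehicle cells outside both classes with such a lymphoid UMI held 1 more. In the other libraries, cells outside both classes held 0 of 39 and 1 of 24 *Bmp4* UMIs. Where *Bmp4* RNA was found thus differed between libraries, in the progenitor range in Matrigel-only and Palo and outside the stroma and the macrophages in Vehicle. The progenitor range held only 89 cells in Vehicle, beside 1102 in Matrigel-only and 321 in Palo. The few *Bmp4* UMIs of that range in Vehicle therefore do not show a level below that of Matrigel-only in these cells.

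The promoter of *Bmp4* is shown because this ligand had the widest ratio among the members between libraries with a UMI. RefSeq promoters of GRCm38.p6 matched 6 of the 10 members, and *Bmp2*, *Bmp7*, *Nog* and *Chrdl1* were not among them. The 250 bases before the start site, chr14:46390670-46390919, are printed on the minus strand, 5′ to 3′. They had a GC content of 63.2% and no match on either strand to AGGTCA, the half-site of retinoid receptors, to GGCGCC, a GC-rich SMAD1/5 motif, or to GTCTAGAC, the SMAD palindrome. Those motifs occurred in 14.02%, 9.59% and 0.167% of 32851 windows of the same length.

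Bmp4: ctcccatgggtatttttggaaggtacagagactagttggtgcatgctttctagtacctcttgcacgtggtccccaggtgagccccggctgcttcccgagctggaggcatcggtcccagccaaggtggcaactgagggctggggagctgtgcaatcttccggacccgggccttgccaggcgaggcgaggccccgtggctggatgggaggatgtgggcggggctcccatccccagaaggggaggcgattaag

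*Bmp2*, at chr2:133552159-133562885 on the plus strand, encodes the ligand whose human protein was implanted. Its mouse RNA was mainly that of macrophages, which held 75.7%, 60% and 84.3% of *Bmp2* UMIs in Matrigel-only, Vehicle and Palo. Macrophages were also most of the cells, 66.6%, 59.4% and 77.6%, and in Vehicle the UMI share was near that cell share. Macrophages of Matrigel-only had 7.51 CPM (6.37 to 8.80), those of Vehicle 2.51 CPM (1.76 to 3.47) and those of Palo 7.21 CPM (6.24 to 8.29). Vehicle lay apart from the others, which overlapped each other. The log2 ratio was -1.58 (-2.15 to -1.05) for Vehicle over Matrigel-only, 1.52 (1.01 to 2.08) for Palo over Vehicle and -0.06 (-0.37 to 0.26) for Palo over Matrigel-only. After thinning to 1400 UMIs, the share of macrophages with a *Bmp2* UMI was 1.19%, 0.378% and 1.17%.

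Stromal *Bmp2* was below macrophage *Bmp2* in each library and also lowest in Vehicle, at 1.95 CPM (1.38 to 2.66), 0.805 CPM (0.485 to 1.26) and 2.02 CPM (1.38 to 2.85), from 39, 19 and 32 UMIs. These levels were 25.9%, 32.1% and 28.0% of those in macrophages. The summed level of the 10 macrophage genes in stromal cells was 3.95%, 1.79% and 3.16% of that in macrophages, below those shares of *Bmp2*. In Vehicle, 10 cells held 94.7% of the 19 stromal UMIs. In the rest of the stroma *Bmp2* was 1.26, 1.33 and 2.31 CPM, so there Vehicle was not the lowest. The log2 ratio of Vehicle over Matrigel-only was 0.08 (-1.03 to 1.21) in the rest. The progenitor range held 25, 0 and 3 UMIs, and 3 UMIs would be 2.63 CPM in that range of Vehicle. The Vehicle cartilage range held 2 UMIs (0.207 CPM). The part of the ranges in the stromal level was not tested.

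**Figure D2:**
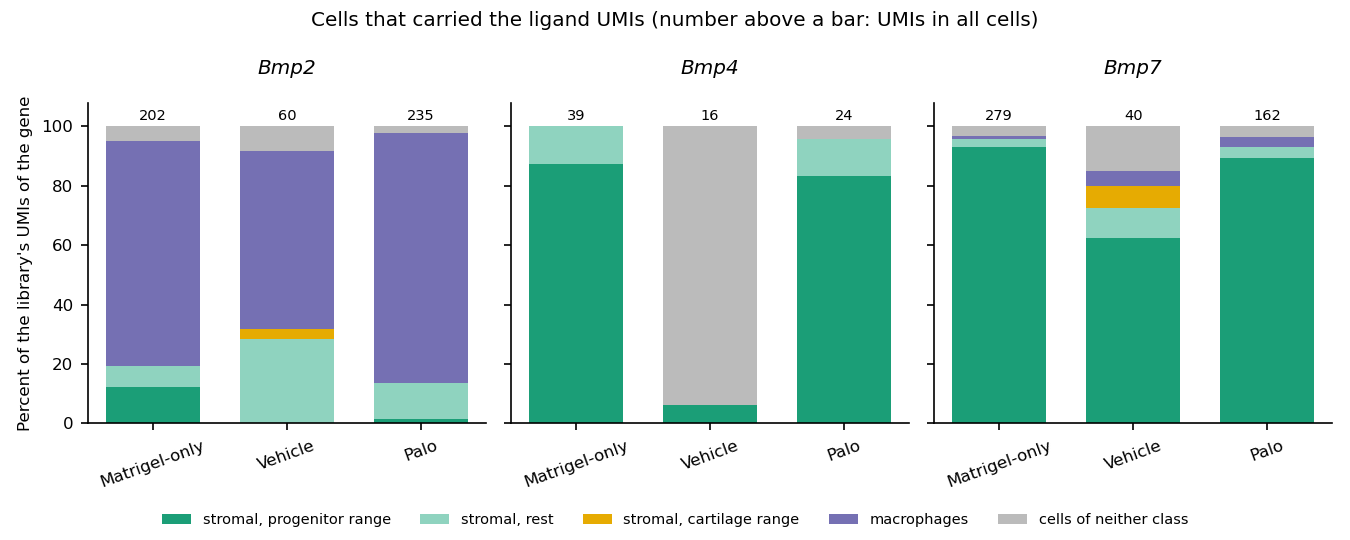
Share of each library's UMIs of *Bmp2*, *Bmp4* and *Bmp7* by the cells that carried them, in percent, with the number of UMIs in all cells above each bar. *Bmp2* came mostly from macrophages, *Bmp7* mostly from the progenitor range, and *Bmp4* from the progenitor range except in Vehicle, where 16 UMIs in all were found.

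Macrophages with *Bmp2* were unevenly spread. A range with *Lyve1*, *Cd209f*, *Cd209g*, *Folr2*, *Fcna* and *Ednrb*, genes of tissue-resident macrophages, at 0.2% of UMIs or more was chosen after genes of *Bmp2*-bearing macrophages were seen, so a higher *Bmp2* level in it is a description of that choice. The range held 24.9% of Matrigel-only, 7.41% of Vehicle and 9.43% of Palo macrophages. In it *Bmp2* was 17.6 CPM (14.2 to 21.5), 13.3 CPM (7.10 to 22.8) and 24.2 CPM (18.7 to 30.8), and the Vehicle interval overlapped both others. In the other macrophages it was 4.03 CPM (3.09 to 5.18), 1.72 CPM (1.09 to 2.58) and 5.37 CPM (4.50 to 6.37), and there the Vehicle interval lay below both others. Many macrophages lay near the limit, 953, 196 and 749 at 0.1% to 0.2% and 780, 150 and 376 at 0.2% to 0.4%. With the limit at 0.1%, 2 levels of the range were counted as moved and 1 as the same, and likewise at 0.4%. The summed level of 5 endothelial genes in macrophages was 9.38, 53.5 and 6.81 CPM, with *Emcn* at 0 in Matrigel-only. Most of each sum was *Pecam1*, at 6.92, 44.7 and 4.08 CPM. The summed level of 6 lymphoid genes was 3.19, 34.5 and 1.35 CPM, with all 6 present in each library. Vehicle macrophages were also highest in the sums of 7 chondrocyte genes (3.44, 53.3 and 2.66 CPM, with *Acan* and *Col2a1* at 0 outside Vehicle), 4 neutrophil genes (38.1, 100.9 and 33.2 CPM) and 5 dendritic cell genes (56.0, 141.8 and 63.3 CPM). Most of each dendritic cell sum was *Cd209a*, at 51.8, 130.6 and 58.3 CPM. The part of these marker genes, or of cells that carry them, in the lower Vehicle level of *Bmp2* was not tested.

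**Figure D3:**
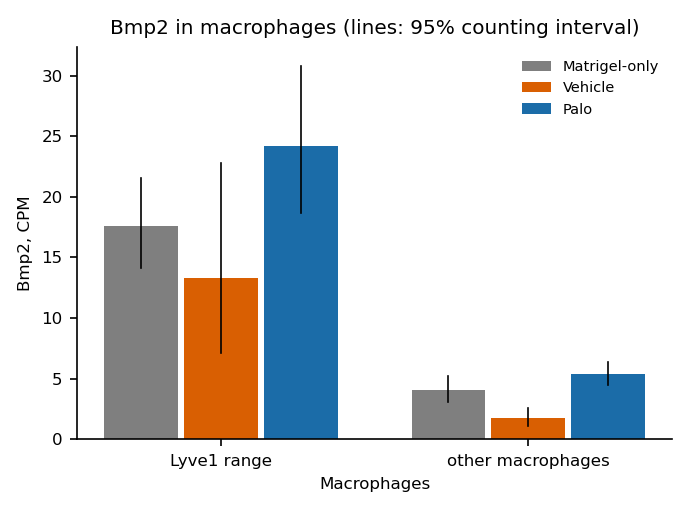
*Bmp2* level in CPM in macrophages of the *Lyve1* range and in the other macrophages, with 1 bar per library and lines for the 95% counting interval. Vehicle is lowest in both, and at this limit, chosen after the data were seen, its interval is clear of the other libraries only outside the *Lyve1* range.

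*Bmpr1a*, at chr14:34410734-34503341 on the minus strand, encodes the type I receptor used widely in mesenchyme and cartilage. Stromal cells held 80.7 CPM (76.8 to 84.7) in Matrigel-only, 61.8 CPM (58.7 to 65.1) in Vehicle and 68.7 CPM (64.6 to 72.9) in Palo. Matrigel-only lay highest, by a log2 ratio of -0.38 (-0.49 to -0.28) for Vehicle and -0.23 (-0.34 to -0.12) for Palo, both under 2-fold. The level varied little among ranges, from 56.9 to 83.3 CPM over the 7 range and library values, and the Vehicle cartilage range held 57.7 CPM (53.0 to 62.7). In macrophages it was 1.82, 1.74 and 0.984 CPM.

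*Bmpr2*, at chr1:59763400-59879014 on the plus strand, encodes the main type II BMP receptor, and reads of the overlapping *Gm38125* on the same strand cannot be told from its own. The stroma held 102.6 CPM (98.3 to 107.2) in Matrigel-only, 108.6 CPM (104.4 to 112.8) in Vehicle and 93.4 CPM (88.7 to 98.2) in Palo. The 3 libraries lay within a log2 ratio of 0.22 of each other. In macrophages it was 44.8 CPM (41.9 to 47.8), 41.8 CPM (38.5 to 45.3) and 36.7 CPM (34.5 to 39.0). The stromal level of *Bmpr2* was 2.29, 2.60 and 2.54 times its macrophage level in the same libraries.

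*Bmpr1b*, at chr3:141837136-142169425 on the minus strand, encodes the type I receptor known from early cartilage condensations. Stromal levels were 3.99 CPM (3.16 to 4.97) in Matrigel-only, 2.92 CPM (2.28 to 3.70) in Vehicle and 5.12 CPM (4.06 to 6.36) in Palo, from 80, 69 and 81 UMIs. Palo lay above Vehicle by a log2 ratio of 0.81 (0.33 to 1.29), and the mean was under the 5 CPM minimum. The rest of the stroma held 76, 63 and 78 of these UMIs, at 6.84, 4.93 and 6.20 CPM, and the progenitor range 4, 0 and 3. The Vehicle cartilage range held 6 UMIs, or 0.621 CPM (0.228 to 1.35), lower than the rest of the Vehicle stroma by a log2 ratio of -2.99 (-4.49 to -1.79). The rest is a range below a score limit and was not free of cartilage matrix RNA, since 29.5% of its Vehicle cells had an *Acan* UMI.

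Before thinning, stromal cells with *Bmpr1a* RNA had a *Bmpr2* UMI only somewhat more often than all stromal cells did. Of stromal cells with a *Bmpr1a* UMI, 64.6% (Matrigel-only), 83.6% (Vehicle) and 70.9% (Palo) also had a *Bmpr2* UMI, and of all stromal cells 57.1%, 77.9% and 64.9% had one. Thinned to 3100 UMIs, 6.65%, 5.56% and 5.26% of stromal cells had *Bmpr2* together with *Bmpr1a* or *Bmpr1b*, with overlapping intervals. Stromal cells with RNA of *Bmp2*, *Bmp4* or *Bmp7* were a smaller share in Vehicle. This pooled share does not describe each ligand, and other BMP ligands are not in it. The thinned share with *Bmp2*, *Bmp4* or *Bmp7* was 6.04% (5.00 to 7.21) in Matrigel-only, 0.804% (0.394 to 1.45) in Vehicle and 4.31% (3.20 to 5.66) in Palo.

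*Grem1*, at chr2:113746164-113758646 on the minus strand, encodes an antagonist of BMP2, BMP4 and BMP7. In stromal cells it was 28.0 CPM (25.8 to 30.4) in Matrigel-only, 20.6 CPM (18.9 to 22.6) in Vehicle and 64.6 CPM (60.7 to 68.7) in Palo. Palo stood above both others, by a log2 ratio of 1.65 (1.49 to 1.80) over Vehicle and 1.20 (1.05 to 1.36) over Matrigel-only. Vehicle over Matrigel-only was -0.44 (-0.62 to -0.26). The thinned share of cells with a UMI was 4.63%, 4.23% and 11.8%, highest in Palo. Cells with *Grem1* often held several UMIs, with 3.63, 3.10 and 4.39 UMIs per cell that had any and up to 19, 32 and 17 in 1 cell. In Vehicle, 10 cells held 34.7% of its UMIs.

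*Grem1* and *Bmp7* were rarely found in the same stromal cell. The progenitor range, rich in *Bmp7*, held *Grem1* at 1.79 CPM in Matrigel-only, 0 UMIs in Vehicle and 6.14 CPM in Palo. The rest of the stroma held 49.1 CPM (45.1 to 53.4), 20.3 CPM (17.9 to 22.9) and 79.7 CPM (74.9 to 84.8), and the Vehicle cartilage range 23.6 CPM (20.6 to 26.9). Within the rest, the log2 ratio was -1.28 (-1.50 to -1.06) for Vehicle over Matrigel-only, 1.98 (1.78 to 2.18) for Palo over Vehicle and 0.70 (0.55 to 0.85) for Palo over Matrigel-only. The stroma without the progenitor range gave -1.18 for Vehicle over Matrigel-only, past 2-fold, and 0.70 for Palo over Matrigel-only, no longer past it. Of 203, 23 and 96 cells with a *Bmp7* UMI, 1, 1 and 3 also had a *Grem1* UMI (0.493%, 4.35% and 3.12%), beside 7.43%, 11.4% and 19.7% of all stromal cells. With 23 such cells, the Vehicle interval of 0.110% to 21.9% included the share of all Vehicle stromal cells.

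**Figure D4:**
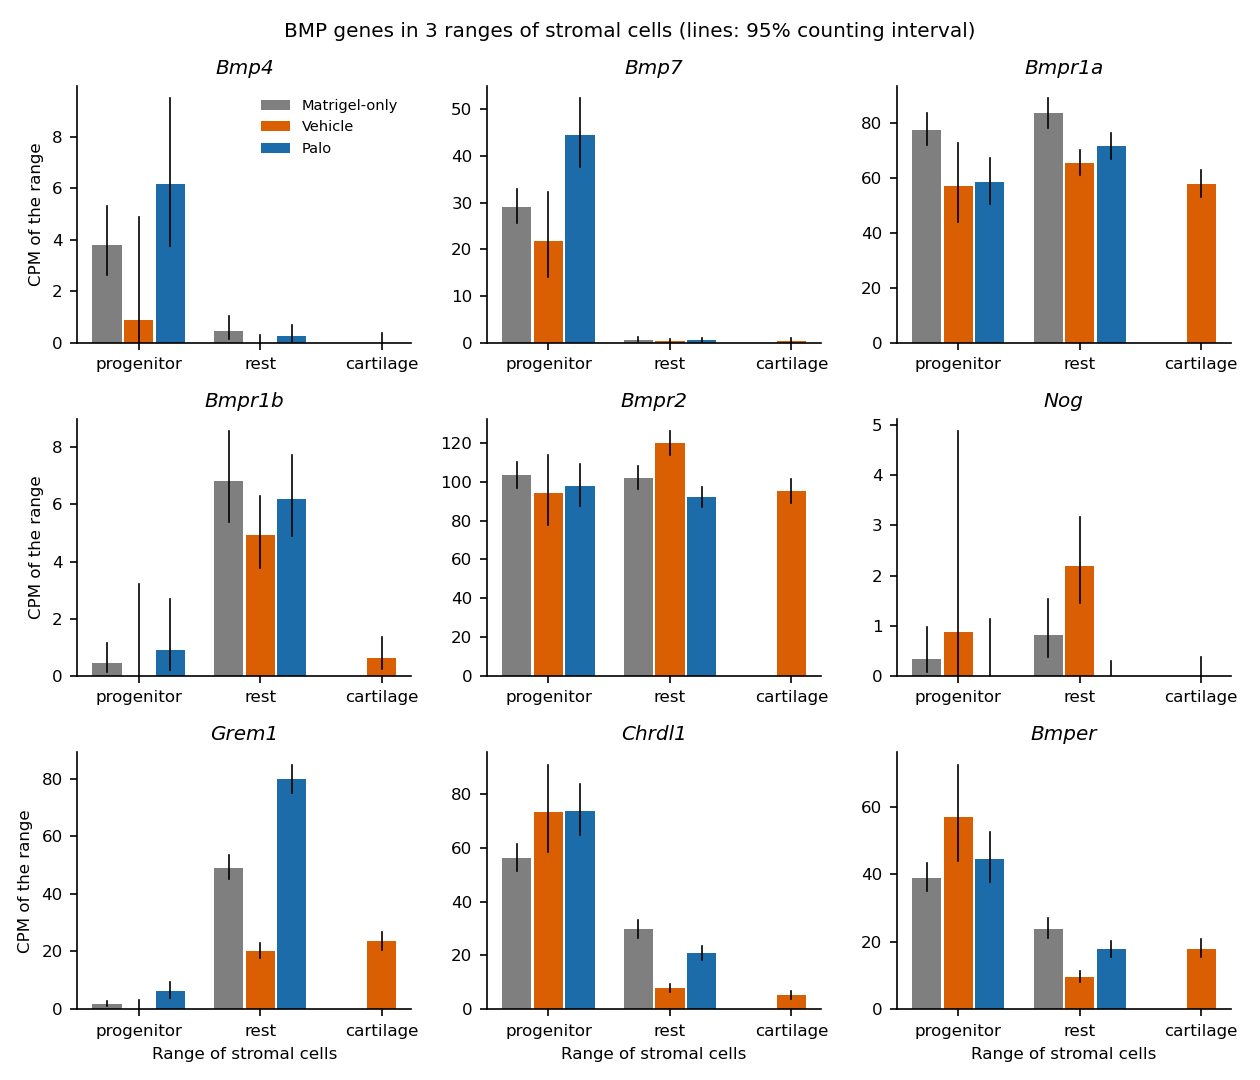
Level in CPM of 9 BMP genes in the progenitor range, the rest and the cartilage range of stromal cells, with 1 bar per library and lines for the 95% counting interval. Matrigel-only and Palo had no cells in the cartilage range. *Bmp4* and *Bmp7* are highest in the progenitor range, *Grem1* and *Bmpr1b* outside it, and *Bmpr1a* and *Bmpr2* are near level.

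The promoter of *Grem1* is shown as that of the member past 2-fold in Palo over each other library. Its 250 bases before the start site, chr2:113758649-113758898 of GRCm38.p6 on the minus strand, hold AGGTCA on the opposite strand at -233 and GGCGCC at -78, both in capitals and counted from the start site. They are given as letters in this window only and are not particular to *Grem1*. A window of *Bmpr1b* also held AGGTCA, at -106, and those of *Bmpr1a* and *Bmpr2* held GGCGCC, at -198 and -105. The window of *Bmper* had no match.

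Grem1: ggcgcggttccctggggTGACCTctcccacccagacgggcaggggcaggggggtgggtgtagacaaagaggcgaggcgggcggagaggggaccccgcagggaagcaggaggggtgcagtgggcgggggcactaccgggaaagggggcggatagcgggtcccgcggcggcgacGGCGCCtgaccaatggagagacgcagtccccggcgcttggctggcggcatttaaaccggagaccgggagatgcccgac

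*Chrdl1*, at chrX:143285674-143394262 on the minus strand, encodes a chordin-like antagonist of BMP4. Over all stromal cells it was 41.6 CPM (38.8 to 44.5) in Matrigel-only, 9.79 CPM (8.57 to 11.1) in Vehicle and 31.7 CPM (29.0 to 34.6) in Palo, with 3 intervals that did not meet. The log2 ratio was -2.09 (-2.30 to -1.87) for Vehicle over Matrigel-only, 1.70 (1.47 to 1.93) for Palo over Vehicle and -0.39 (-0.55 to -0.23) for Palo over Matrigel-only. In the progenitor range it was 56.3 CPM (51.5 to 61.4), 73.5 CPM (58.6 to 91.0) and 73.7 CPM (64.7 to 83.7), so there Vehicle was not the lowest. In the rest it was 29.8 CPM (26.7 to 33.2), 7.67 CPM (6.22 to 9.34) and 20.8 CPM (18.4 to 23.5), with a log2 ratio of -1.96 (-2.30 to -1.63) for Vehicle over Matrigel-only. *Chrdl1* was thus lower in Vehicle than in Matrigel-only in the rest, but not in the progenitor range. The Vehicle cartilage range held 5.07 CPM (3.75 to 6.70). Progenitor-range cells made up 52.9%, 6.48% and 27.1% of the stroma, and their part in the stromal level was not tested.

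*Bmper*, at chr9:23223076-23485200 on the plus strand, encodes a modulator known from endothelium and cartilage. The stromal cells held 30.6 CPM (28.2 to 33.1) in Matrigel-only, 15.3 CPM (13.7 to 16.9) in Vehicle and 23.2 CPM (20.9 to 25.7) in Palo. The Vehicle over Matrigel-only ratio, -1.003 (-1.19 to -0.81), lay on the 2-fold limit, and it was under the limit in 9 of 11 alternatives, which ranged from -1.19 to -0.81. Palo over Vehicle was 0.61 (0.39 to 0.82). In the progenitor range *Bmper* was 39.0, 56.9 and 44.5 CPM. Vehicle lay above Matrigel-only there by a log2 ratio of 0.55 (0.14 to 0.93). Palo over Vehicle was -0.35 (-0.78 to 0.09), which leaves their order open. In the rest it was 23.8, 9.55 and 17.7 CPM, with Vehicle the lowest. The Vehicle cartilage range held 17.9 CPM (15.3 to 20.8), above the rest of the Vehicle stroma by a log2 ratio of 0.91 (0.56 to 1.25), the reverse of *Chrdl1*, whose ratio there was -0.60 (-1.12 to -0.09).

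*Nog*, at chr11:89300638-89302332 on the minus strand, encodes noggin, which BMP signalling itself is known to induce. It was found in 12 Matrigel-only and 24 Vehicle stromal cells and in 0 of 1184 Palo stromal cells, of which 3 cells would be 0.253%. Finding 0 cells with a UMI sets no limit on cells that express it. The levels were 0.599 CPM (0.309 to 1.05) from 12 UMIs in Matrigel-only and 1.23 CPM (0.823 to 1.77) from 29 UMIs in Vehicle. Set at 3 UMIs, the Palo stroma was 6.49-fold lower than Vehicle and 3.16-fold lower than Matrigel-only, at a mean under the 5 CPM minimum. These folds take the 29 and 12 UMIs without their counting error, so they are not lower limits. Of the 29 Vehicle UMIs, 28 fell in the rest of the stroma, at 2.19 CPM (1.46 to 3.17), and 0 in the 562 cells of the cartilage range. The Palo macrophages also held 0 *Nog* UMIs.

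RNA of any of the 4 antagonists and modulators was found in a smaller share of Vehicle cells. This pooled share does not describe each gene. *Nog* had more UMIs in Vehicle than in Matrigel-only stroma (29 against 12), and the thinned *Grem1* shares of these libraries were close. The thinned share of stromal cells with *Nog*, *Grem1*, *Chrdl1* or *Bmper* was 23.9% (22.0 to 25.9) in Matrigel-only, 12.2% (10.5 to 14.1) in Vehicle and 25.7% (23.2 to 28.3) in Palo. The unthinned shares were 43.0%, 35.9% and 51.7%. The cells with *Bmper* shared *Chrdl1* in 30.6%, 13.4% and 31.9% of cases, beside 23.0%, 10.3% and 25.2% of all stromal cells.

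The 5 members with a mean of at least 5 CPM over both classes (*Bmpr1a*, *Bmpr2*, *Grem1*, *Chrdl1* and *Bmper*) were all at least 2-fold higher in stromal cells, where 20.1%, 20.7% and 23.2% of 10512 genes were higher and 17%, 18.7% and 16.5% lower in Matrigel-only, Vehicle and Palo. The 12 fibroblast genes gave a median log2 ratio of stromal cells over macrophages of 6.92 (5.19 to 7.12) in Matrigel-only, 6.07 (3.30 to 6.55) in Vehicle and 7.34 (5.44 to 7.95) in Palo. *Bmpr1a* (5.47, 5.15 and 6.12), *Chrdl1* (5.56, 6.14 and 6.60) and *Bmper* (5.96, 5.45 and 7.73) lay within that range in each library. *Grem1* (4.76, 5.89 and 5.54) lay within it in Vehicle and Palo and below it in Matrigel-only. *Bmpr2*, at 1.20, 1.38 and 1.35, lay far below it in all 3.

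Of the 52 listed other ligands, receptors, antagonists or modulators, transducers and response genes, 29 passed 5 CPM in the stroma. The list of ligands includes *Bmp1*, which despite its name encodes a metalloprotease and not a BMP ligand. There, 5 were at least 2-fold higher and 9 lower in Vehicle than in Matrigel-only. Over all 10311 genes 4.55% were higher and 9.97% lower, so more genes were lower than higher there too. Their median log2 ratio was -0.64, beside -0.04 over all genes. In Palo over Vehicle 8 were higher and 3 lower, beside 7.45% and 4.6% of all genes, with a median of 0.29 beside 0.02. In Palo over Matrigel-only 0 were higher and 1 lower, beside 0.834% and 2.21%. The stromal levels of these genes, here and below, are over all stromal cells and, except for *Gdf5*, are not split by range. The progenitor range was 52.9%, 6.48% and 27.1% of the stroma in Matrigel-only, Vehicle and Palo. The cartilage range was 40.9% of the Vehicle stroma and had 0 cells in the others. The part of the ranges in these levels was not tested.

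Among the other ligands, *Bmp6* stood at 19.0, 0.636 and 9.28 CPM in the order Matrigel-only, Vehicle, Palo, with a log2 ratio of -4.90 (-5.75 to -4.16) between the first pair, and *Gdf10* was 11.9, 3.18 and 11.6 CPM. *Gdf5*, a ligand of joint and cartilage formation, ran the other way, with 134 UMIs in Vehicle, 119 of them in the cartilage range, and 0 in the other libraries. Its mean was under the minimum and it was named after its values were seen. Of other ligands under the minimum, *Bmp5* was also higher in Vehicle (26, 89 and 19 UMIs). *Bmp3* (91, 10 and 99 UMIs) and *Bmp8a* (152, 34 and 77 UMIs) were lower there. Among the receptors and co-receptors, *Acvr1*, the type I receptor mutated in fibrodysplasia ossificans progressiva, was 36.1, 87.8 and 42.7 CPM, and *Bambi*, a pseudoreceptor that BMP signalling induces, was 7.88, 71.5 and 13.7 CPM. *Acvrl1*, an endothelial type I receptor, was 66.7, 32.5 and 50.6 CPM, and the co-receptors *Rgma* and *Rgmb* were 41.8, 9.71 and 36.1 CPM and 40.1, 13.4 and 29.1 CPM.

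Of the 9 other secreted antagonists and modulators past the minimum, 4 were lower and 1 higher in Vehicle than in Matrigel-only. Of all genes, 9.97% were lower and 4.55% higher. *Chrd*, encoding chordin, was 19.2, 3.48 and 17.1 CPM, lowest in Vehicle as *Chrdl1* was. *Nbl1* was 313.6, 81.8 and 225.7 CPM, *Fstl1* 6456, 1924 and 5344 CPM and *Kcp* 30.8, 12.8 and 19.6 CPM. *Fstl3*, which binds activins, was 15.2, 61.3 and 17.9 CPM and was highest in Vehicle.

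The response genes *Id1* and *Id3* were highest in Vehicle stroma, at 42.5, 101.2 and 51.3 CPM and at 241.4, 641.8 and 326.0 CPM in Matrigel-only, Vehicle and Palo. Both were past 2-fold in Vehicle over Matrigel-only, and neither was in Palo over Vehicle, at log2 ratios near -0.98. Of the transducers, the ubiquitin ligase *Smurf1* alone passed 2-fold, in Palo over Vehicle, at 42.2, 22.8 and 46.9 CPM. In macrophages *Smad7*, an inhibitory SMAD, was 8.35, 38.6 and 16.9 CPM and *Id1* 2.85, 11.9 and 4.45 CPM, both highest in Vehicle. *Id2*, of the same response list, was 410.4, 371.6 and 502.0 CPM in macrophages and lowest in Vehicle, by a log2 ratio of -0.14 (-0.19 to -0.09) to Matrigel-only. *Bmp1* in macrophages was 8.54, 12.7 and 4.99 CPM, *Crim1* 23.5, 11.2 and 14.4 CPM and *Fstl1* 54.8, 26.8 and 26.2 CPM. The macrophage levels of *Bmp1* and *Fstl1* lay far below the stromal ones, which for *Bmp1* were 761.4, 819.1 and 783.7 CPM. Fibroblast genes in macrophages summed to 0.935%, 1.35% and 0.561% of their stromal level. The part of stromal RNA in the macrophage levels of *Bmp1* and *Fstl1*, and in their differences between libraries, was not tested.

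**Figure D5:**
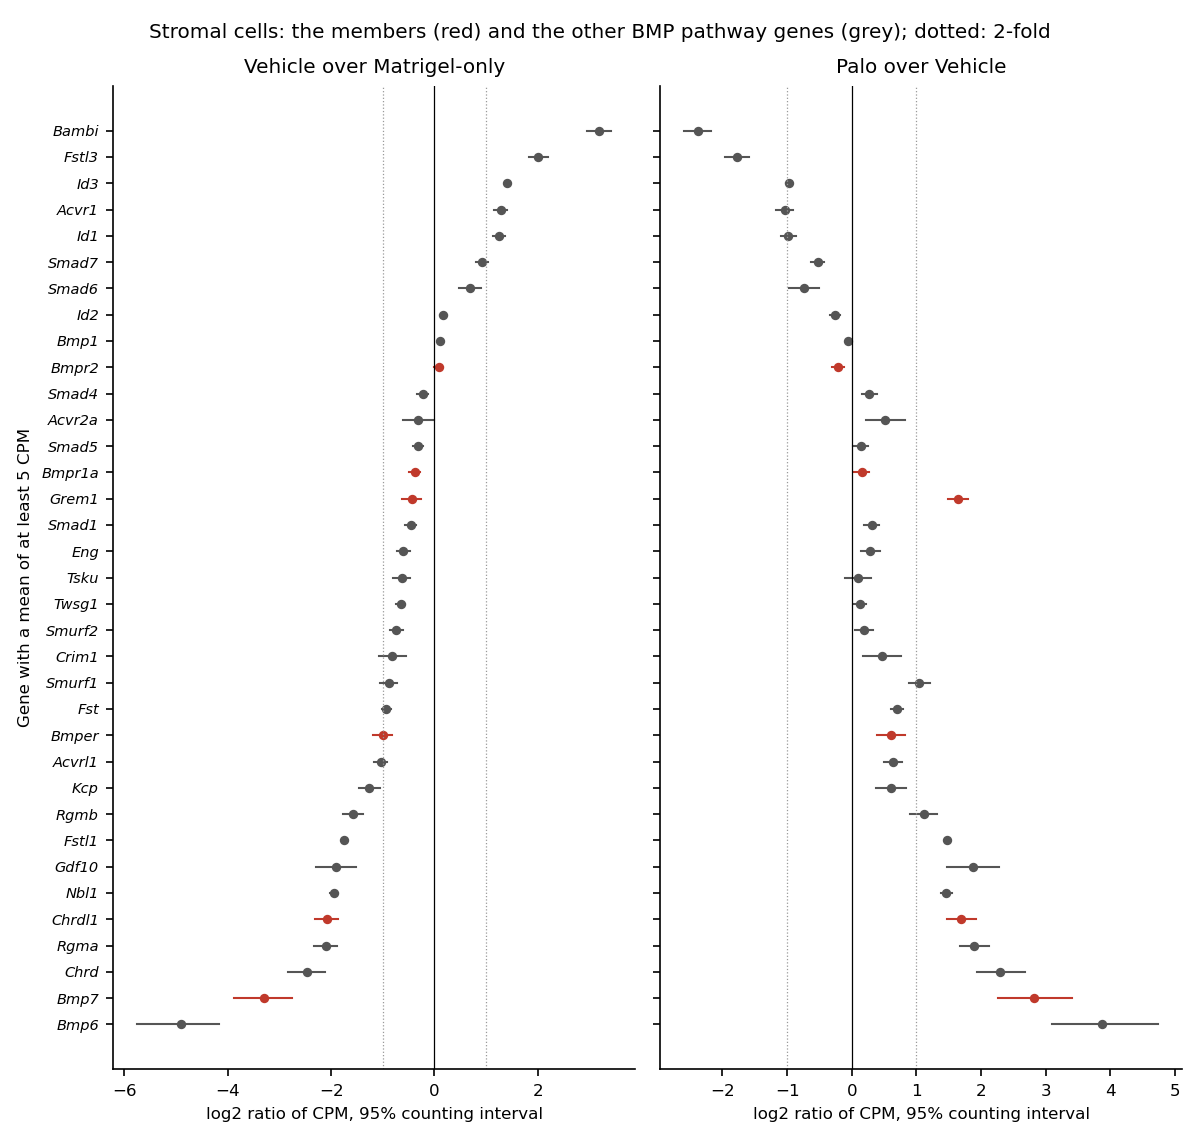
Log2 ratio of stromal CPM for the 6 members (red) and 29 other BMP pathway genes (grey) with a mean of at least 5 CPM, for Vehicle over Matrigel-only (left) and Palo over Vehicle (right), with lines for the 95% counting interval and dotted lines at 2-fold. Genes are ordered by the left panel. The panels share the Vehicle library. *Bmp7* and *Chrdl1* lie near *Bmp6*, *Chrd* and *Rgma* in the left panel, and *Grem1*, under 2-fold there, lies past 2-fold in Palo over Vehicle.

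The genes whose pattern was most like that of a member over 10 values (3 stromal ranges and macrophages by library, where cells existed) were sought among 10561 genes by the mean absolute difference of centred log2(CPM + 1) values. For *Bmp7* these were *Ackr2* (0.26), *Gm16485* (0.30) and *Limch1* (0.39). For *Chrdl1* they were *Nova1* (0.17), *Fap* (0.21) and *Ebf3* (0.22), and for *Bmper* *Evc* (0.27), *Podxl2* (0.27) and *Arhgap29* (0.28). *Grem1* had no near match, with *Etv4* (0.66), *Tenm3* (0.70) and *Epha4* (0.72) the nearest. For *Bmpr1a* they were *Zfp462* (0.11), *Wwtr1* (0.12) and *Hoxc6* (0.17), and for *Bmpr2* *Ccdc6* (0.07), *Trim35* (0.08) and *Dennd5b* (0.09).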

How the data were processed

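Cells of day 5 masses were freed with dispase, and the authors made 1 Chromium library per group. Per the labels, reads were aligned with Cell Ranger 3.0.2 to mm10, and the authors deposited UMI counts per gene and barcode, without normalization, and used Seurat 3 for their own clusters, which were not used here. Whether the kit reads the end of the transcript is not given in the sources used here, so CPM of different genes are not compared. With 1 library per group, the stated intervals cover counting error only.

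Counts were summed over the cells of a class and divided by the UMIs of the class. Shares carry exact binomial intervals, ratios conditional binomial intervals, and thinned shares come from the hypergeometric formula. The thinning depth was 3100 UMIs for stromal cells and 1400 for macrophages, below which cells were left out. A library at 0 was set to 3 UMIs. No doublet caller was run, and the limit of 6000 genes and an alternative without cells of mixed markers stand for it. All members were named. Other pathway genes with a mean of at least 5 CPM could be named if they passed 2-fold or were among the 3 highest of their list. Not all genes that met this were named. *Gdf5*, *Bmp5*, *Bmp3* and *Bmp8a*, under that minimum, were named beside these after their values were seen. Members and lists were chosen with earlier results of these data known. A gene of the pathway lists is not reported here. Other genes gave the background of each count. Gene positions are those of GENCODE vM21. Python 3.11.15, numpy 2.4.6, scipy 1.17.1, edgeR 4.0.16 (TMM factors only) and DESeq2 1.42.0 (size factors only) were used, and the scripts were tested on simulated data. Results were recomputed under 14 alternatives, and 4 more were added after the data were seen.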

Additional observations from a re-analysis of the deposited data

Results flagged for a closer look

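A signal lay outside the stromal cells and macrophages that were compared. In the Vehicle library, *Bmp4* stood at 9.17 CPM (5.01 to 15.4) in the 574 cells of neither class without a lymphoid UMI. This level, from 14 UMIs in 12 cells, was above that in Vehicle stromal cells (1 UMI) and macrophages (0 UMIs). Of Vehicle cells outside both classes, 82 had at least 3 UMIs of the basophil genes *Mcpt8*, *Cd200r3* and *Ms4a2*, a set defined after the data were seen. They held 7 *Bmp4* UMIs in 6 cells, 7.32% (2.73 to 15.2), at a median of 1346.5 UMIs per cell and a level of 51.1 CPM (20.5 to 105.2). In Matrigel-only and Palo, 0 cells met that limit. The other *Bmp4* UMIs lay in cells that were not assigned to a type. The 574 Vehicle cells were also highest in summed endothelial genes (16.4, 328.8 and 18.9 CPM in Matrigel-only, Vehicle and Palo). Neutrophil genes (38.4, 1398 and 295.5 CPM) and chondrocyte genes (4.52, 470.2 and 1.65 CPM) were likewise highest there. Dendritic cell genes were not (468.0, 464.3 and 495.5 CPM). Which of these cells carried *Bmp4* was not tested. In Matrigel-only, the 733 cells of neither class without a lymphoid UMI held 0 *Bmp4* UMIs, and the 374 such Palo cells held 1.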

How the results depend on the processing

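Of the 72 counts of members past 2-fold under alternatives, 61 stayed within 1.5 times the reported count. These include the stromal count of Vehicle over Matrigel-only, 3 as reported and 2 in most alternatives, where *Bmper* was under 2-fold or, with a minimum of 20 CPM, *Bmp7* was left out. With no minimum level, the counts in stromal cells were 6 for Vehicle over Matrigel-only, 6 for Palo over Vehicle and 2 for Palo over Matrigel-only, and in macrophages 4, 4 and 2, because all 10 members entered. With a minimum of 20 CPM, and with 5 CPM added, the macrophage counts were 0 for Vehicle over Matrigel-only and 0 for Palo over Vehicle, since *Bmp2* was left out or drawn towards no difference. Without the progenitor range, the stromal count of Palo over Matrigel-only was 0. Of the alternative ratios of members, 487 lay within the counting interval of the reported ratio (or, for a bound, kept its direction), 46 did not, and no ratio past 2-fold changed direction. *Chrdl1* stayed past 2-fold in all 11 alternatives in Vehicle over Matrigel-only and in Palo over Vehicle, *Bmp7* in 11 and 10 and *Grem1* in Palo over Vehicle in 11. The 11 of *Bmp7* include the log2 ratio of -1.01 without the progenitor range, which rests on few UMIs. TMM factors moved the median of all genes in macrophages from -0.17 to -0.00 in Palo over Vehicle, and *Bmp2* was then at 1.69. Halved or doubled range limits moved *Bmp7* in the progenitor range between 22.0 and 38.9 CPM in Matrigel-only, 16.3 and 35.9 in Vehicle and 25.9 and 62.7 in Palo. Shares of cells without thinning lay outside the thinned interval in 40 of 60 cases. No paired analysis was possible because each group has 1 library, and for the same reason none could be left out. Under about 100 UMIs, as for *Bmp4*, *Nog* and *Bmpr1b*, depth leaves intervals too wide to order libraries that overlap.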
